A study of Mus musculus with 2 samples.

Results

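Forkhead factors are transcription factors that bind DNA through a winged-helix domain, and 7 of them are described here in nuclei of gastrulating mouse embryos: Foxa1, Foxa2, Foxa3, Foxc1, Foxd3, Foxj1 and Foxq1. The members were the rows of the gene table with these 7 symbols, of 32285 genes in all, together with the accessibility peaks within 50 kb of their starts, 152 of 229480 peaks. Embryos labelled E7.0 had been pooled, dissociated and taken through a 10x Genomics multiome, which reads nuclear RNA and open chromatin from the same nucleus. There was 1 RNA library and 1 accessibility library, and all 15341 barcodes carried both. The strain entry of both libraries read RedMUC298trTg, no treatment was named, and the number of embryos in the pool was not given. Since nothing ties a nucleus to an embryo, there are no replicates and no test, and the intervals below, at 95%, cover counting error only.

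The labels disagreed on the tissue. Titles, age and protocol named E7.0 embryos, whereas the source and cell type entries named small intestine, distal colon and goblet cells. A list of 8 goblet and intestinal epithelium genes summed to 276 UMIs (RNA molecules counted), or 1.90 CPM (counts scaled to a total of 1000000), against 1497 CPM for 8 epiblast genes and 4091 CPM for 11 visceral endoderm genes. After filtering, 12796 nuclei remained, with medians of 10471 UMIs and 17350 peak counts per nucleus.

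Foxa factors open closed chromatin and are needed for endoderm, liver and the midline; Foxa2 in particular is required for the node, the notochord and the floor plate. Foxj1 switches on the genes that build motile cilia, such as those of the node that set left and right. Foxc1 acts in mesoderm, Foxd3 in the pluripotent epiblast and later in the neural crest, and Foxq1 is best known from epithelia.

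Promoter sequences were taken from RefSeq (GRCm38.p6) for 5 of the 7 members, and those of Foxa2, Foxa3 and Foxc1 are shown because accessibility at their promoters varied far less between groups of nuclei than their RNA did. That of Foxd3, for which no promoter peak was called, is set beside them. Each line gives the 250 bases before a start, read in the direction of the gene, and capitals mark the only match to the motifs searched in these 4 windows, a TATA box in Foxa3. RefSeq lists 3 starts for Foxa2, and the window of the most upstream one is shown, which lies outside the peak counted as the Foxa2 promoter.
Foxa2, minus strand, chr2:148046970-148047219: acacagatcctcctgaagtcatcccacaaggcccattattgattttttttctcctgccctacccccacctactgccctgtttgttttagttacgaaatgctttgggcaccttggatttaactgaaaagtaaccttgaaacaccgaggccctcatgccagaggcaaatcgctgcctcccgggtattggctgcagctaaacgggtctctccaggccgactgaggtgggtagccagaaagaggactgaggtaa
Foxa3, minus strand, chr7:19023540-19023789: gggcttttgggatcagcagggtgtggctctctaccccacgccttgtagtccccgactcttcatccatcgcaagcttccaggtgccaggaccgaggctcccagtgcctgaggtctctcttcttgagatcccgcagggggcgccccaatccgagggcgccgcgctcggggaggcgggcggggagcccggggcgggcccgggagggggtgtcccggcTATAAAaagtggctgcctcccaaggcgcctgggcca
Foxc1, plus strand, chr13:31806396-31806645: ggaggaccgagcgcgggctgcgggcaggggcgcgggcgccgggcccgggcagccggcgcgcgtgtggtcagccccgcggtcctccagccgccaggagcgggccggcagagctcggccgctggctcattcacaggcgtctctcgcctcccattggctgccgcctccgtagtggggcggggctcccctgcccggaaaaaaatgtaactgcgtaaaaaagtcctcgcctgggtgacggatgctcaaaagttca
Foxd3, plus strand, chr4:99656049-99656298: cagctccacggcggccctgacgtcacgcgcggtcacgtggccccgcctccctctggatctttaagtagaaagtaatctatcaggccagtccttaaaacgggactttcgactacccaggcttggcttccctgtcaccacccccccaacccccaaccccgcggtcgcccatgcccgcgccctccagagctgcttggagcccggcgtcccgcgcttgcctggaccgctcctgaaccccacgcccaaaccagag
The Foxa3, Foxc1 and Foxd3 windows held 18, 29 and 21 CG pairs, and the Foxa2 window shown held 6, the median of all 32851 windows of this length. The windows of the other 2 Foxa2 starts held 20 and 13 CG pairs, and the latter held matches too, a TATAAA and an AGATAA among them. A TATAAA was present in 12.4% of those windows on either strand.

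For Foxa1 only a short stretch is shown, because RefSeq places the window inside a longer transcript of the gene. The Foxa1 window held 21 CG pairs and 1 copy of the forkhead motif TGTTTAC, read on the other strand and in capitals here, a motif found in 3.17% of all windows.
Foxa1, minus strand, chr12:57546234-57546263: tatactgctttGTAAACAaagtgagggcca
Further motifs searched on both strands included TGTTTGC (forkhead), CATTGT (SOX), CTTTGAT (TCF/LEF), GGATTA (OTX and goosecoid) and GGTGTGA (T-box). A match is only a run of letters, and the absence of one says nothing of binding.

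To keep the described values out of the clustering, RNA was described in groups of nuclei clustered from accessibility without the 152 peaks. Accessibility was described in groups clustered from RNA without the 7 genes. Neighbouring genes such as Ttc6 and 9030622O22Rik were not left out, so these groups are not fully independent of the peaks inside such genes. Groups were named from marker lists and carry "-like" for that reason; those without a clear leading list are called by their leading genes. The most relevant of these was a cluster of 946 nuclei led by Pkd1l1 and Tll1, in which Chrd, a marker of the node and axial list, was among the leading genes while the anterior streak and definitive endoderm list scored highest. A member was counted as raised where its level reached 2-fold that of all other nuclei on at least 20 UMIs in total. All 7 members were raised in at least 1 group. Among all 19877 genes with that many UMIs, 54.5% were.

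Foxa1 was highest in anterior visceral endoderm-like nuclei, the extraembryonic layer that patterns the head. There it reached 41.6 CPM (36.8 to 46.8) in 455 nuclei, 12.1-fold (10.4 to 14.1) over all other nuclei. The Pkd1l1 and Tll1 cluster followed at 20.8 CPM, 5.13-fold (4.35 to 6.03), and the 2 intervals in CPM did not overlap. Visceral endoderm-like nuclei held 4.70 CPM and the shallow Hist1h3b and Hist1h2bb cluster, with a median of 2140 UMIs, 5.40 CPM. Values in the named groups other than these lay between 0 in the 35 parietal endoderm-like nuclei and 2.31 CPM in primitive streak-like nuclei. Foxa1 was thus raised in 2 groups, on 755 UMIs in all. RefSeq places the first 1326 bp of the neighbouring gene Ttc6 over a longer transcript of Foxa1. The Foxa1 start used here, at 57546121 on the minus strand, lies outside that stretch, as RefSeq starts Ttc6 at 57546704. Whether strand was used in counting is not given in the sources used here.

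Foxa2 had its order turned round. The Pkd1l1 and Tll1 cluster was highest at 198 CPM (190 to 207), 9.47-fold (8.93 to 10.0) over the rest, and 73.6% of its nuclei had a UMI. The 35 parietal endoderm-like nuclei held 95.9 CPM (67.9 to 132) and anterior visceral endoderm-like nuclei 76.6 CPM (70.1 to 83.5), 2.47-fold, and these neighbours overlapped. Visceral endoderm-like nuclei at 33.0 CPM and primitive streak-like nuclei at 31.5 CPM came next and were alike. Epiblast-like, embryonic mesoderm-like, extraembryonic mesoderm-like, haemato-endothelial progenitor-like, extraembryonic ectoderm-like and ectoplacental cone-like nuclei all lay between 8.19 and 9.99 CPM. Whether this common low level is expression or free RNA was not tested. With nuclei thinned to 5000 UMIs, 3.86% of haemato-endothelial progenitor-like nuclei (8.40% unthinned, median 10206 UMIs) and 55.9% of the Pkd1l1 and Tll1 cluster (median 9805 UMIs) had a Foxa2 UMI.

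Foxa3 was raised in the visceral endoderm groups only. Anterior visceral endoderm-like nuclei held 30.1 CPM (26.1 to 34.6), 5.67-fold over all others, and visceral endoderm-like nuclei 14.1 CPM (12.8 to 15.5), 3.10-fold. In the Pkd1l1 and Tll1 cluster, where Foxa1 and Foxa2 were high, Foxa3 stood at 3.93 CPM, against 3.18 CPM in epiblast-like nuclei. The 3 paralogues therefore overlapped in anterior visceral endoderm-like nuclei, while the Pkd1l1 and Tll1 cluster had 2 of them.

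Foxq1 marked the anterior visceral endoderm-like nuclei. Its level was 117 CPM (109 to 126) there, 17.8-fold (16.1 to 19.6) over all others, and 18.8 CPM in visceral endoderm-like nuclei. With nuclei thinned to 5000 UMIs, 36.4% of anterior visceral endoderm-like nuclei had a Foxq1 UMI (58.7% unthinned, median 14132 UMIs), against 1.48% of haemato-endothelial progenitor-like nuclei. The Pkd1l1 and Tll1 cluster held 10.7 CPM and every further named group except the 35 parietal endoderm-like nuclei held 3.75 CPM or less. Among the RNA clusters, 145 nuclei led by Igfbp1 and Epas1 also held Foxq1, at 36.6 CPM (29.0 to 45.7). The anterior visceral endoderm-like nuclei of that clustering held 113 CPM.

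Foxj1 was highest in the Pkd1l1 and Tll1 cluster at 60.8 CPM (56.0 to 65.8), 13.9-fold (12.4 to 15.6) over all others. The fold was 23.6 in its highest group of the finer clustering and 24.8 in that of the RNA clustering. Anterior visceral endoderm-like nuclei were second at 26.7 CPM (22.9 to 30.9), 3.65-fold, and 26.8% of them had a UMI (12.2% after thinning). Visceral endoderm-like nuclei held 3.85 CPM, primitive streak-like nuclei 4.01 CPM and epiblast-like nuclei 3.04 CPM. Up to 19 Foxj1 UMIs were counted in 1 nucleus.

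Foxc1 and Foxd3 marked embryonic groups in which Foxa2 was at this common low level. Foxc1 was raised in embryonic mesoderm-like nuclei alone, at 19.7 CPM (17.6 to 21.9) against 0.782 CPM in all other nuclei, a 25.1-fold difference (20.04 to 31.7). Extraembryonic mesoderm-like nuclei held 1.62 CPM. Foxd3 reached 65.1 CPM (62.4 to 67.8) in epiblast-like nuclei, 5.59-fold (5.22 to 5.99) over all others, and 60.7, 61.9 and 75.2 CPM in the 3 clusters that make up that group. With doublet calls kept the fold was 3.35, and at the finer clustering, with 1726 epiblast-like nuclei, 3.49. Beyond the epiblast, the Pkd1l1 and Tll1 cluster held 35.3 CPM and primitive streak-like nuclei 23.9 CPM, and the shallow Hist1h3b and Hist1h2bb cluster 39.1 CPM (33.1 to 45.8), whereas embryonic mesoderm-like nuclei held 4.90 CPM and extraembryonic ectoderm-like nuclei 5.31 CPM.

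**Figure D1:**
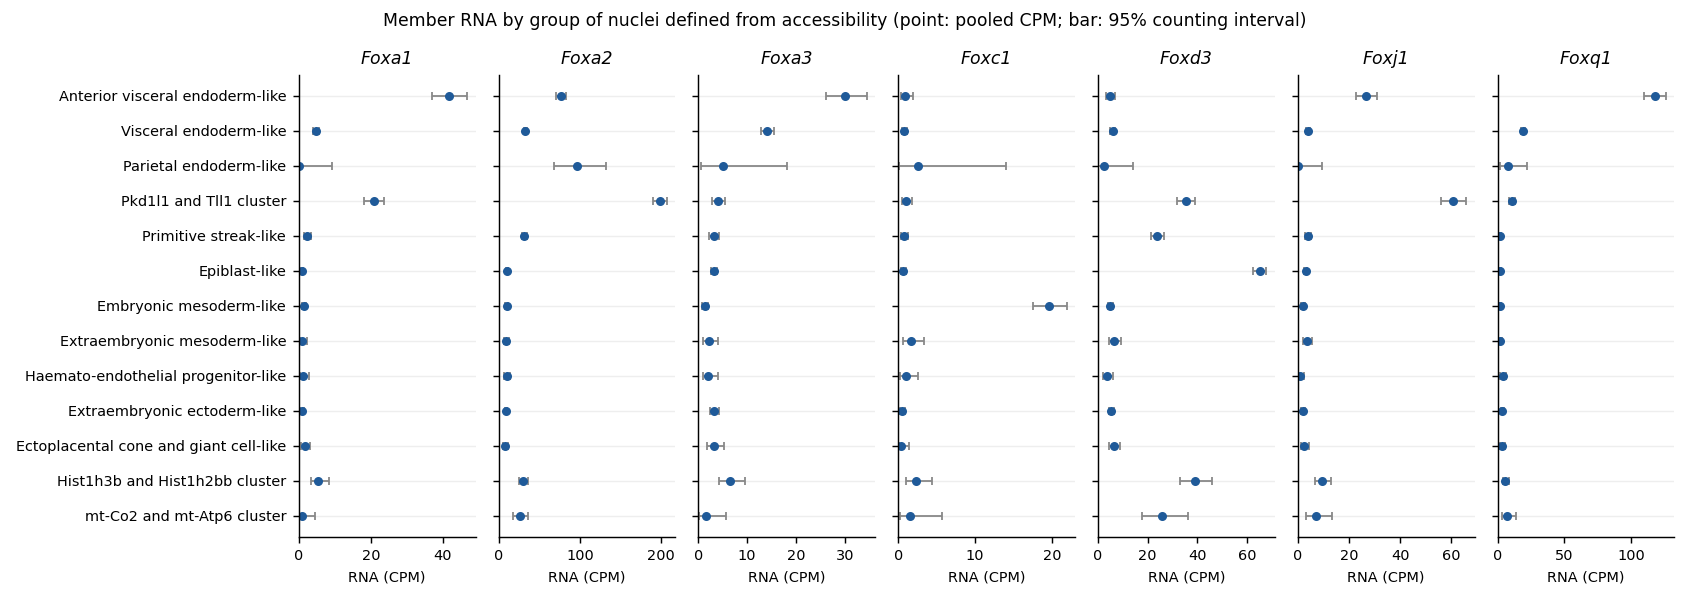
RNA of each member (CPM, linear axes that differ between panels) in 13 groups of nuclei defined from accessibility; points are pooled values of a group and bars the 95% counting intervals. Foxa1, Foxa3 and Foxq1 peak in anterior visceral endoderm-like nuclei (41.6, 30.1 and 117 CPM), Foxa2 and Foxj1 in the Pkd1l1 and Tll1 cluster (198 and 60.8 CPM), Foxc1 in embryonic mesoderm-like and Foxd3 in epiblast-like nuclei.

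The Pkd1l1 and Tll1 cluster was not uniform. A separate, finer clustering of accessibility gave 551 nuclei led by the cilium genes Pkd1l1 and Zbbx, 533 of them among the 946. It also gave 400 nuclei led by Cer1, a secreted Nodal antagonist, and Pax7, all of them among the 946. Foxj1 stood at 104 CPM (95.5 to 113) in the first and 4.39 CPM (2.64 to 6.85) in the second, a 23.7-fold difference (15.01 to 39.6). Foxd3 followed the same side, with 58.0 against 3.93 CPM, 14.8-fold (9.09 to 25.7). Foxq1 went the other way, at 2.51 against 21.2 CPM, or 0.118-fold (0.0623 to 0.209).

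Foxa2 was shared more evenly between these clusters, at 239 CPM (226 to 252) in the Pkd1l1 and Zbbx cluster and 146 CPM (134 to 157) in the Cer1 and Pax7 cluster, 1.64-fold. Foxa1 was slightly lower in the former, 18.1 against 24.2 CPM, 0.748-fold (0.564 to 0.993). Foxa3 at 3.23 and 4.85 CPM and Foxc1 at 1.08 and 0.693 CPM had intervals of the fold that included 1. Clusters from RNA made a like division without the members: in 659 nuclei led by Pkd1l1 and Zbbx against 367 led by Cer1 and Cadps2, the folds were 34.6 for Foxj1, 14.96 for Foxd3, 1.54 for Foxa2 and 0.118 for Foxq1. The high Foxj1 and intermediate Foxd3 of the joined cluster thus came from the nuclei with cilium genes, and its Foxq1 from those with Cer1.

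The visceral endoderm divided along another line. Anterior visceral endoderm-like nuclei exceeded visceral endoderm-like nuclei 8.84-fold (7.18 to 10.9) in Foxa1, 6.94-fold (5.45 to 8.86) in Foxj1 and 6.23-fold (5.58 to 6.96) in Foxq1, but 2.32-fold in Foxa2 and 2.14-fold in Foxa3. Foxd3, at 4.77 and 5.87 CPM, and Foxc1, at 0.894 and 0.721 CPM, did not differ beyond counting error. The visceral endoderm-like group itself joined clusters of 1364, 612 and 103 nuclei. Of these, the 612 nuclei, led by Ltk and Rasgrf2 among others, held 12.99 CPM of Foxa1 and 38.1 CPM of Foxq1, whereas the 1364 nuclei, led by Bmp6 and Mamld1, held 1.26 and 11.03 CPM. Foxa3 was closer, at 17.0 and 13.5 CPM.

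**Figure D2:**
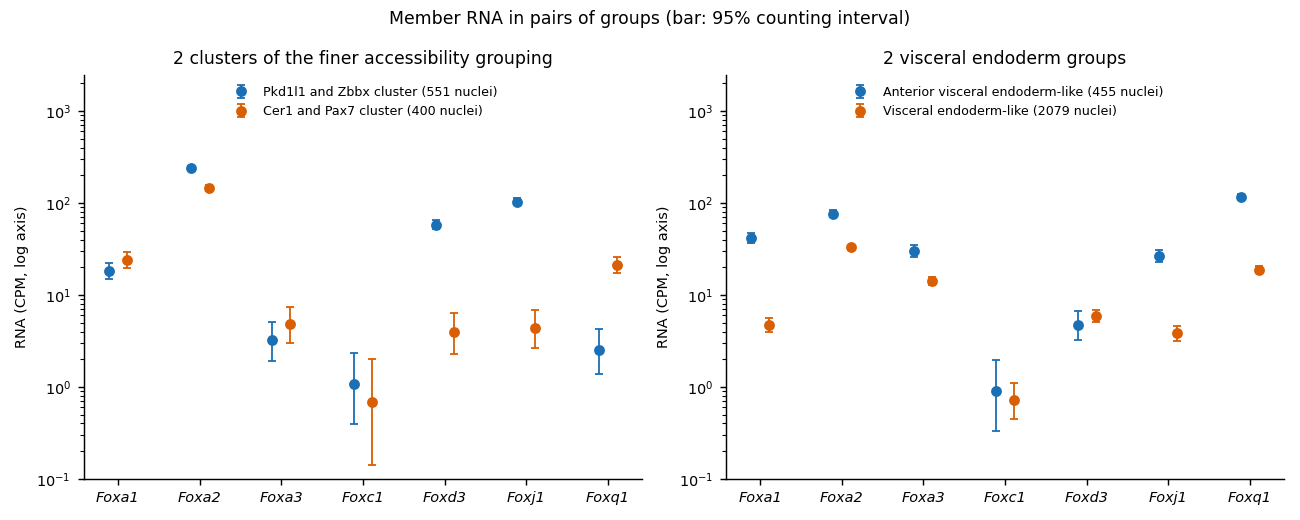
RNA of each member (CPM, log axis) in the 2 clusters of the finer accessibility grouping (left) and in anterior visceral endoderm-like against visceral endoderm-like nuclei (right); bars are 95% counting intervals. On the left Foxj1 and Foxd3 are high in the Pkd1l1 and Zbbx cluster (104 and 58.0 CPM) and Foxq1 in the Cer1 and Pax7 cluster (21.2 CPM), while on the right the members other than Foxc1 and Foxd3 are higher in the anterior group.

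At the 5 members with a promoter peak, accessibility of the promoter differed between these groups far less than RNA did. Promoters were taken as the 1000 bp before a start and the 100 bp after it, and a peak overlapped that stretch for Foxa1, Foxa2, Foxa3, Foxc1 and Foxj1. For Foxd3 the nearest peak was centred 2655 bp upstream and for Foxq1 517 bp downstream, so neither had a value by this rule. None of the 5 promoters reached 2-fold over all other nuclei in any RNA group of at least 50 nuclei, while 22.6% of the 21454 promoters with at least 20 fragments did so in at least 1 group. With 2000 bp to each side of a start Foxq1 had 2 peaks, and their sum reached 2.14-fold (1.82 to 2.499) in anterior visceral endoderm-like nuclei, while those of the 5 others stayed under 2-fold.

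The Foxa2 promoter varied most. It stood at 61.5 CPM of peak counts (57.7 to 65.5) in visceral endoderm-like nuclei, 60.2 in anterior visceral endoderm-like nuclei, 55.9 in the Cer1 and Cadps2 cluster and 55.6 in the Pkd1l1 and Zbbx cluster, whose intervals overlapped. Extraembryonic ectoderm-like nuclei were lowest at 12.0 (9.94 to 14.3), or 0.288-fold of all other nuclei. Epiblast-like nuclei held 33.9. In 2 pairs of groups the promoter and RNA went apart: RNA was 7.44 CPM in epiblast-like and 7.76 CPM in extraembryonic ectoderm-like nuclei, and 33.1 CPM in visceral endoderm-like nuclei against 213 CPM in the Pkd1l1 and Zbbx cluster.

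The Foxa1 promoter was highest in the Cer1 and Cadps2 cluster at 42.9 CPM, 1.66-fold (1.40 to 1.94), beside 40.3 in anterior visceral endoderm-like nuclei and 37.9 in the Pkd1l1 and Zbbx cluster, with intervals that overlap and another group highest under 7 of 8 alternatives. It was lowest in extraembryonic ectoderm-like nuclei at 13.7. The Foxa3 promoter, which also overlaps that of Sympk, was open in every group of that size, from 58.4 in embryonic mesoderm-like to 88.8 in anterior visceral endoderm-like nuclei. Of its 2 peaks, the one centred 102 bp inside the gene reached 33.0 in anterior visceral endoderm-like nuclei, 2.005-fold (1.72 to 2.33), and the one 792 bp upstream 1.17-fold in visceral endoderm-like nuclei.

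Foxc1 and Foxj1 promoters did not follow their RNA. That of Foxc1 held 21.8 CPM in embryonic mesoderm-like nuclei, where its RNA was 25.1-fold raised, against 24.8 in visceral endoderm-like nuclei, its highest by fold at 1.27-fold. For Foxj1 the highest value, 51.6 CPM (44.4 to 59.5), lay in the cluster led by Ascl2 and Gab2, 1.58-fold over all others, with Foxj1 RNA at 1.86 CPM. The Pkd1l1 and Zbbx cluster, at 94.2 CPM of Foxj1 RNA, held 33.9.

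**Figure D3:**
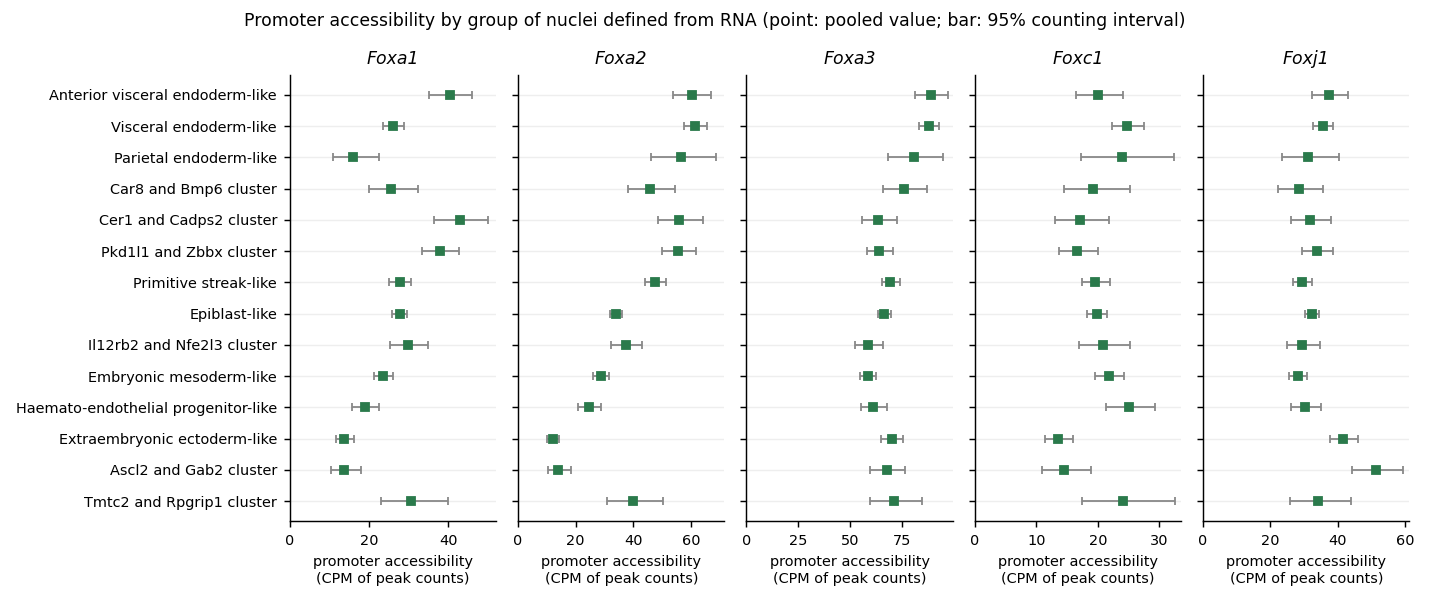
Promoter accessibility of the 5 members with a promoter peak (CPM of peak counts) in 14 RNA-defined groups of at least 50 nuclei; squares are pooled values and bars 95% counting intervals. Foxa2 spans 12.0 to 61.5 and Foxa1 13.7 to 42.9, whereas Foxa3, Foxc1 and Foxj1 change little between groups and Foxj1 is highest in the Ascl2 and Gab2 cluster at 51.6.

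Within a group, nuclei with and without a UMI of the gene were also compared. In the Pkd1l1 and Tll1 cluster the Foxa2 promoter gave 59.2 CPM of fragments in 696 nuclei with a Foxa2 UMI and 44.2 in 250 without one, 1.34-fold (1.07 to 1.69), and the former were deeper (medians 10391 and 8038 UMIs). For Foxa1, Foxa3, Foxc1 and Foxj1, each in its highest group, the folds lay between 0.943 and 1.14 and every interval included 1.

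The 152 peaks around the members differed more. Of them, 100 reached 2-fold in at least 1 RNA group and 60 reached 3-fold, but 70.5% and 40.6% of all peaks with at least 20 fragments did so, so the counts lay near or below the background. What the members' peaks showed was in which nuclei each one opened.

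Around Foxa1, 16 of 25 peaks were raised, 1 of them with an interval of the fold that included 1. A peak 7026 bp upstream, inside Ttc6, held 26.0 CPM in anterior visceral endoderm-like nuclei, 9.37-fold (7.62 to 11.5), with 6.32 in the Cer1 and Cadps2 cluster, 6.35 in the Pkd1l1 and Zbbx cluster and 3.87 in visceral endoderm-like nuclei. Another, 20690 bp downstream, was 12.0-fold (8.03 to 17.9) raised in the Pkd1l1 and Zbbx cluster, at 6.92 against 1.47 CPM in the Cer1 and Cadps2 cluster and 1.18 in anterior visceral endoderm-like nuclei. The raised peaks were highest in anterior visceral endoderm-like nuclei at 3, in the Pkd1l1 and Zbbx cluster at 1 and in the Cer1 and Cadps2 cluster at 5, the last including one 18922 bp downstream at 6.02-fold. Of all peaks, 5.28% were raised and highest in anterior visceral endoderm-like nuclei, 3.73% in the Pkd1l1 and Zbbx cluster and 4.88% in the Cer1 and Cadps2 cluster, and nothing is read from these counts.

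Around Foxa2, 22 of 27 peaks were raised, 8 of them most in visceral endoderm-like nuclei, 6 in the Pkd1l1 and Zbbx cluster and 4 in the Cer1 and Cadps2 cluster. Of all peaks, 7.82%, 3.73% and 4.88% were raised and highest in these groups. Among the 22, 2 of those highest in the Cer1 and Cadps2 cluster rested on 3 fragments each, with intervals of the fold that included 1. The visceral endoderm peaks lay mainly downstream, inside the long noncoding gene 9030622O22Rik, whose RefSeq body ends 2363 bp from that of Foxa2. The peaks 20257, 32347 and 44013 bp downstream were 13.5-fold (10.7 to 17.1), 13.2-fold and 12.0-fold raised there. At the third of these the level was 25.0 CPM in visceral endoderm-like and 14.7 in anterior visceral endoderm-like nuclei, 9.41 in the Cer1 and Cadps2 cluster and 0.804 in the Pkd1l1 and Zbbx cluster. At the first and second, visceral endoderm-like nuclei held 14.7 and 11.2 CPM. There the Cer1 and Cadps2 cluster held 1.18 and 0.882 and the Pkd1l1 and Zbbx cluster 1.13 and 0.563.

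On the upstream side a peak at 38093 bp held 23.6 CPM in the Pkd1l1 and Zbbx cluster, 4.71-fold (3.91 to 5.65), 12.1 in primitive streak-like nuclei and 0.942 in visceral endoderm-like nuclei. The peak at 19053 bp did the reverse, with 0.965 in the Pkd1l1 and Zbbx cluster, 18.5 in the Cer1 and Cadps2 cluster and 23.4 in visceral endoderm-like nuclei. A peak 5072 bp downstream was highest in the Cer1 and Cadps2 cluster at 57.8. The Cer1 and Cadps2 cluster therefore shared some peaks with the visceral endoderm, such as those 44013 bp downstream and 19053 bp upstream. The Pkd1l1 and Zbbx cluster lacked these, although Foxa2 RNA was high in both clusters. Other visceral endoderm peaks, such as those 20257 and 32347 bp downstream, were low in both clusters. Between these 2 clusters the fold was 0.0521 (0.0201 to 0.114) at the peak 19053 bp upstream and 3.49 (2.29 to 5.51) at that 38093 bp upstream.

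Foxa3 had 14 of 27 peaks raised, and 7 of its peaks also lay at promoters of other genes. Of the raised peaks 6 were highest in the Ascl2 and Gab2 cluster, where 5.01% of all peaks were raised and highest, and 2 each in visceral and anterior visceral endoderm-like nuclei, where 7.82% and 5.28% were. Its most strongly changing visceral endoderm peak, 15963 bp downstream, held 71.0 CPM in anterior visceral endoderm-like, 64.4 in visceral endoderm-like and 48.0 in parietal endoderm-like nuclei, against 9.65 in the Pkd1l1 and Zbbx cluster and 2.57 in embryonic mesoderm-like nuclei. The fold in visceral endoderm-like nuclei was 6.25 (5.73 to 6.81). A smaller peak 4091 bp inside the gene was 8.68-fold raised in 177 parietal endoderm-like nuclei, a group that joined 145 nuclei led by Igfbp1 and Epas1 with 32 led by Lama1.

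Around Foxq1, 9 of 11 peaks were raised, and 7 of those were highest in anterior visceral endoderm-like nuclei, where 5.28% of all peaks were raised and highest. Levels there were 13.6 CPM at the peak 24557 bp upstream, 8.12-fold (6.12 to 10.7), and 20.02 at that 22668 bp upstream, 5.55-fold (4.44 to 6.89). The latter was also open in extraembryonic ectoderm-like nuclei, at 11.4, where Foxq1 RNA was 3.75 CPM. The start in the files lies 2036 bp before that of RefSeq, and the peak centred 1980 bp downstream, over the RefSeq start, held 33.2 in anterior visceral endoderm-like nuclei and between 11.8 and 21.5 in the other groups of at least 50 nuclei, 2.32-fold. Of the 11 peaks around Foxq1, 2 also lay at promoters of other genes, and 1 of these was raised.

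Around Foxj1, 16 of 25 peaks were raised, 5 most in anterior visceral endoderm-like nuclei (5.28% of all peaks were raised and highest there) and 3 in the Pkd1l1 and Zbbx cluster (3.73%). A peak 22862 bp downstream held 20.6 CPM in the Pkd1l1 and Zbbx cluster, 8.81-fold (7.09 to 10.9), 12.8 in the Cer1 and Cadps2 cluster and 10.1 in anterior visceral endoderm-like nuclei, but 1.45 in epiblast-like nuclei. At 8128 bp downstream the order was different, with 46.9 in anterior visceral endoderm-like nuclei, 24.6 in the Pkd1l1 and Zbbx cluster and 14.9 in the Cer1 and Cadps2 cluster. Another, 5616 bp downstream, held 8.93 in the Pkd1l1 and Zbbx cluster and 1.18 in the Cer1 and Cadps2 cluster, 7.59-fold (3.08 to 24.2), though epiblast-like nuclei held 10.9. Nuclei of the Cer1 and Cadps2 cluster, with Foxj1 RNA at 2.72 CPM, thus had some of these peaks open and not others.

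Around Foxc1, 15 of 22 peaks were raised, 2 of them with intervals of the fold that included 1. Of the 15, 6 were raised most in embryonic mesoderm-like nuclei, where 6.46% of all peaks were raised and highest. The peak 46314 bp upstream held 39.1 CPM there, 11.7-fold (10.2 to 13.4), against 11.3 in the Cer1 and Cadps2 cluster, 8.74 in haemato-endothelial progenitor-like nuclei and 1.14 in epiblast-like nuclei. The peaks 21962 bp upstream and 11886 bp downstream were 16.0-fold (11.6 to 22.4) and 13.3-fold (9.94 to 18.0) raised, at 7.99 and 8.87 CPM. In contrast to the promoter, these followed Foxc1 RNA to the mesoderm.

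Around Foxd3, 8 of 15 peaks were raised, beside 70.5% of all peaks. The one 14018 bp upstream held 24.7 CPM in epiblast-like nuclei, 3.88-fold (3.47 to 4.34), 17.0 in the Pkd1l1 and Zbbx cluster, 16.2 in primitive streak-like nuclei and 3.68 in the Cer1 and Cadps2 cluster. Foxd3 RNA had the same order in these 4 groups, at 67.4, 59.2, 22.7 and 3.96 CPM of RNA, but the Il12rb2 and Nfe2l3 cluster departed from it, with 18.8 CPM of peak counts and 48.4 CPM of RNA. A peak 18990 bp downstream was open in another group, with 14.2 CPM in extraembryonic ectoderm-like nuclei, 21.4-fold (16.1 to 28.5), although Foxd3 RNA there was 5.02 CPM.

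**Figure D4:**
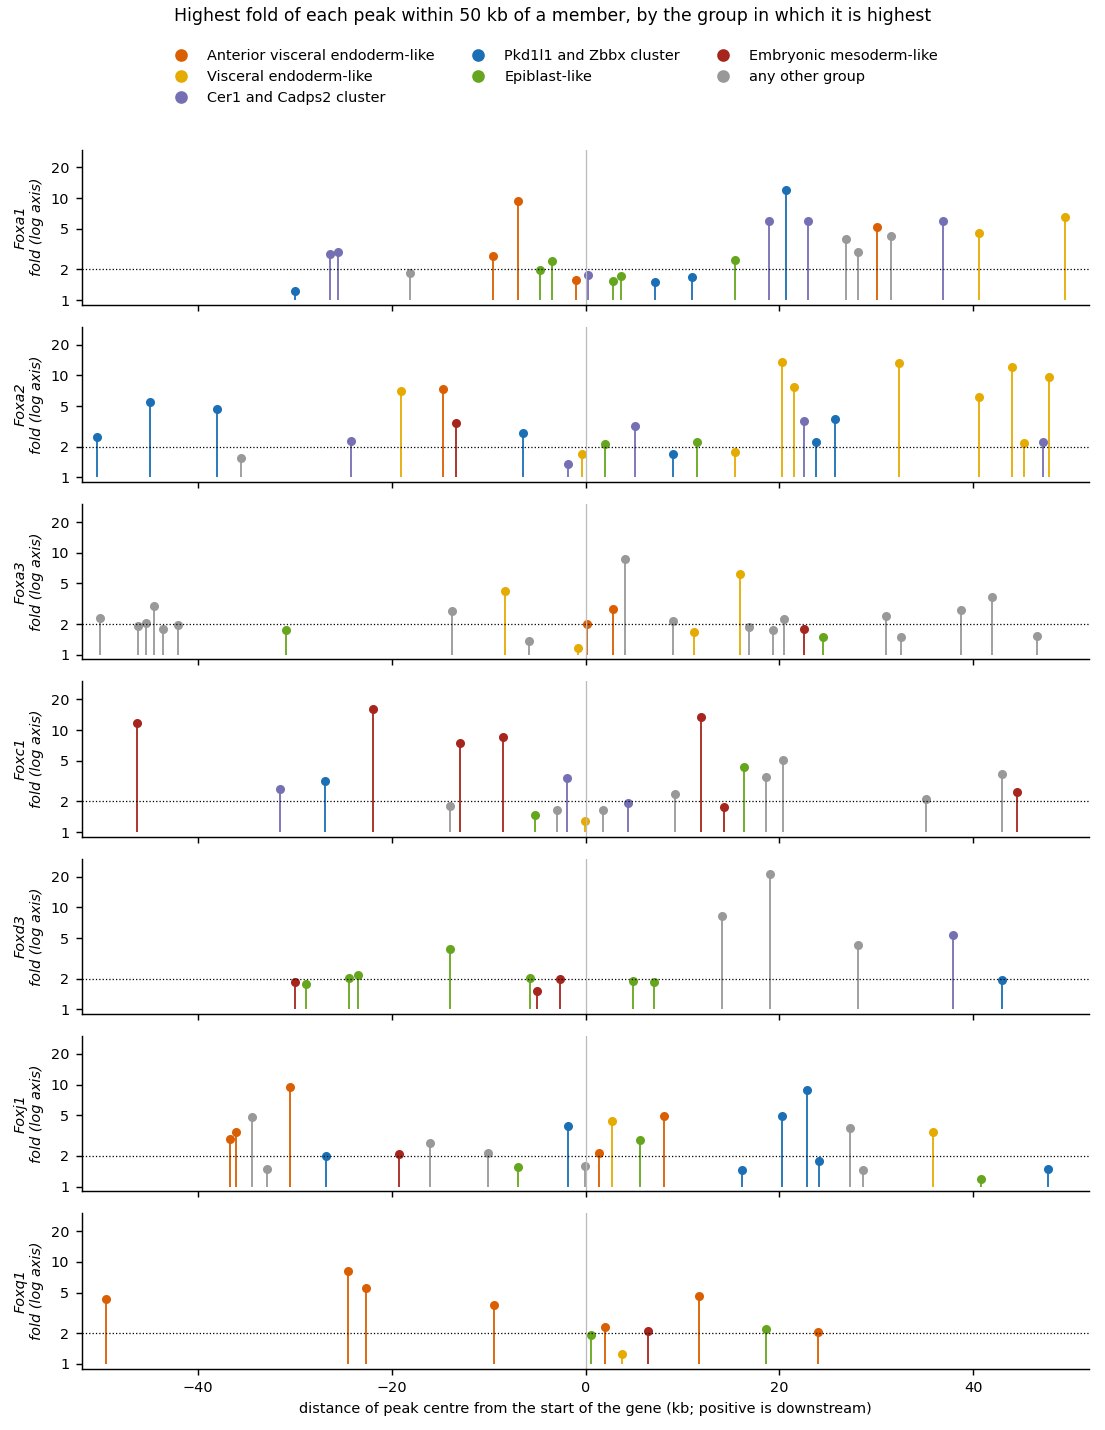
Each of the 152 peaks by its distance from the start of the member (kb, positive is downstream) and its highest fold over all other nuclei in any RNA group (log axis); colour gives that group and the dotted line is 2-fold. Peaks counted as promoters reach at most 2.005-fold (Foxa3), while Foxa2 has visceral endoderm peaks downstream (up to 13.5-fold), Foxc1 has mesoderm peaks on both sides (up to 16.0-fold) and most raised Foxq1 peaks are those of anterior visceral endoderm-like nuclei.

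As a description over 16 accessibility clusters, which share libraries and depth, Spearman's rho between RNA and promoter accessibility was 0.856 for Foxa2, 0.844 for Foxa3, 0.474 for Foxc1, 0.438 for Foxa1 and 0.274 for Foxj1. Over 19 RNA clusters it was 0.784, 0.825, 0.168, 0.709 and 0.202 in the same order of genes, so that Foxa1 and Foxc1 depended on the clustering. With all peaks within 50 kb summed it was, over the accessibility clusters, 0.788 for Foxa2, 0.615 for Foxa3, 0.568 for Foxc1, 0.238 for Foxa1, 0.718 for Foxj1, 0.782 for Foxd3 and 0.732 for Foxq1. Over the RNA clusters it was 0.484 for Foxa1 and 0.374 for Foxc1, and between 0.612 and 0.795 for the other 5.

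Members were also found together in single nuclei. With 11187 nuclei thinned to 5000 UMIs, 136 of 333 nuclei with a Foxj1 UMI also had a Foxa2 UMI, 40.8% (35.5 to 46.3), against 11.2% of nuclei without Foxj1. For Foxa1 the shares were 35.4% (29.6 to 41.7) and 11.5%, for Foxq1 24.7% (20.7 to 28.97) and 11.5%, and for Foxa3 19.1% (14.9 to 23.8) and 11.8%. Foxd3 was no companion of Foxa2 over the pool, at 11.2% with and 12.2% without, but was found in 20.1% (15.9 to 24.8) of nuclei with Foxj1 and 10.0% of those without.

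Within groups only Foxj1 with Foxa2 is given here, in 2 groups, where the shares lay closer together than over the pool. How much of the pairing lay between groups was not tested. Within the Pkd1l1 and Tll1 cluster, Foxa2 was found in 63.2% (55.0 to 70.8) of nuclei with Foxj1 and 54.4% (50.8 to 58.1) of nuclei without, intervals that overlap. In anterior visceral endoderm-like nuclei the shares were 38.5% (25.3 to 53.0) and 29.4%. UMIs of at least 2 members were present in 32.9% of anterior visceral endoderm-like nuclei and 24.4% of the Pkd1l1 and Tll1 cluster, against 5.40% of all thinned nuclei.

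**Figure D5:**
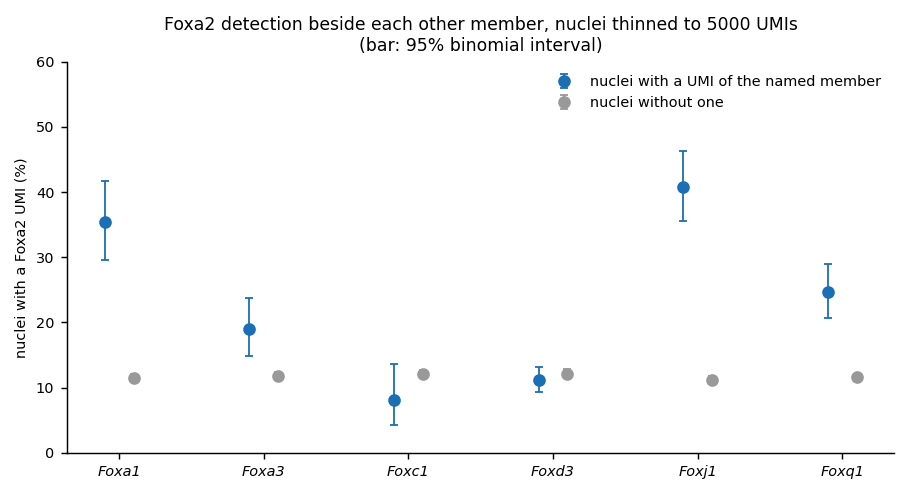
Share of nuclei with a Foxa2 UMI (%) among nuclei with (blue) and without (grey) a UMI of each other member, after thinning to 5000 UMIs; bars are 95% binomial intervals. Foxj1 (40.8%), Foxa1 (35.4%), Foxq1 (24.7%) and Foxa3 (19.1%) lie above the nuclei without them, and Foxd3 (11.2%) and Foxc1 (8.05%) do not.

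The genes most like each member were ranked by Pearson's r of log2(CPM + 1) over the 17 accessibility clusters. For Foxa1 they were Scel (r = 0.915), its neighbour Ttc6 (0.899) and Cer1 (0.889), and for Foxa2 the endoderm factor Sox17 (0.876), the adjacent 9030622O22Rik (0.869) and Chst15 (0.817). The noncoding neighbour of Foxa2 was not a copy of its pattern: it held 496 CPM in anterior visceral endoderm-like nuclei and 272 in the Pkd1l1 and Tll1 cluster, the reverse of the Foxa2 order. Foxa3 was nearest to Synj2, the brush border gene Vil1 and Stard4, and Foxq1 to the lactate transporter gene Slc16a1, Rnase4 and Ctsc. Foxj1 was nearest to Samd3, the Nodal antagonist gene Lefty1 and Six3, Foxc1 to the Notch ligand gene Dll1, Lefty2 and Pcdh19, and Foxd3 to Kcnh8, Mapk10 and Mal2. Among the members themselves, r was 0.875 for Foxa3 with Foxq1, 0.857 for Foxa1 with Foxj1 and 0.622 for Foxa1 with Foxa2.

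Of 22 motile cilium genes, 18 were raised in the Pkd1l1 and Tll1 cluster, in which 6.82% of all genes were. Their median log2 fold was 2.62, against -0.08 over all genes. Zbbx was raised 60.5-fold, the flow sensor gene Pkd1l1 47.4-fold, the axoneme gene Cfap44 31.5-fold and Tekt4 28.7-fold. The list was chosen with earlier results of these data known. It holds Pkd1l1, after which this cluster is named, and Zbbx, after which a finer cluster is. The count is therefore a description and no test. In the anterior visceral endoderm-like nuclei, second in Foxj1 RNA, 1 of 22 was raised, the dynein gene Dnah11 at 4.20-fold, beside 7.67% of all genes. There 7 of 22 were at least 2-fold lower, beside 25.4% of all genes, both counts being near the background in this accessibility group. The median log2 fold was -0.63 beside -0.24 over all genes, so the list was not raised there as in the Pkd1l1 and Tll1 cluster. In the RNA clusters, which were built on such genes, 20 of 22 were raised in the Pkd1l1 and Zbbx cluster (7.78% of all genes) and 3 of 22 in the Cer1 and Cadps2 cluster (5.99%). The anterior visceral endoderm-like nuclei of the RNA groups had 1 of 22 raised (7.62%) but 14 lower. Their median log2 fold was -1.43 beside -0.26 over all genes, so the lower count depended on the clustering.

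Of 20 regulators and products of endoderm and liver, listed because textbooks place them with Foxa factors, 17 had enough UMIs. In visceral endoderm-like nuclei 7 were raised (11.5% of all genes), among them Igfbp1 at 13.2-fold and the bile acid receptor gene Nr1h4 at 11.4-fold, and 5 were at least 2-fold lower (25.9% of all genes). In anterior visceral endoderm-like nuclei 4 were raised (7.67% of all genes), among them Hnf4g at 4.36-fold on 4 UMIs, Sox17 at 3.76-fold and Tcf7l2 at 3.48-fold, and 5 were lower (25.4%). In the Pkd1l1 and Tll1 cluster 3 were raised (6.82%), Sox17 at 4.90-fold, Prox1 at 3.87-fold and Mixl1 at 2.45-fold, and 9 were lower (13.3%). In haemato-endothelial progenitor-like nuclei, with Foxa2 at its common low level, 6 were raised (8.49%) and 4 lower (20.8%), with a median log2 fold of 0.28, beside 0.23 in visceral endoderm-like nuclei. In the RNA groups these medians were 0.09 and -0.13, with 4 raised and 6 lower against 5 and 5. The 177 parietal endoderm-like nuclei of the RNA groups had 9 raised (11.4% of all genes), 4 lower and a median log2 fold of 1.03. Of these nuclei, 145 formed a cluster led by Igfbp1, itself on the list. The list genes were not left out of the RNA clustering, so the counts in the RNA groups are a description and no test. Of the genes named, Sox17 was raised in both the anterior visceral endoderm-like nuclei (111 CPM) and the Pkd1l1 and Tll1 cluster (129 CPM). It was not particular to them, at 58.9 CPM in visceral endoderm-like and 265 CPM in the 35 parietal endoderm-like nuclei.

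Of 34 other forkhead genes, 25 had at least 20 UMIs and 18 of these were raised in at least 1 group, against 54.5% of all genes. Among the 18, Foxp3 on 1 UMI and Foxd1 on 3 UMIs had intervals of the fold that included 1. In the Pkd1l1 and Tll1 cluster 5 were raised (6.82% of all genes) and 3 were at least 2-fold lower (13.3%), the raised ones including Foxb1 at 3.47-fold, Foxp2 at 3.16-fold and Foxo6 at 2.72-fold. In anterior visceral endoderm-like nuclei Foxp4 was the one raised, at 2.75-fold and 202 CPM (7.67% of all genes were raised), and 8 were lower (25.4%). Visceral endoderm-like nuclei had Foxo4 at 4.54-fold, extraembryonic ectoderm-like nuclei Foxr1 at 11.9-fold, and epiblast-like nuclei Foxr2 at 7.84-fold, Foxn4 at 5.62-fold and Foxi3 at 4.65-fold. Of the broadly transcribed relatives, Foxn3 and Foxp1 were raised 2.34-fold and 2.12-fold in epiblast-like nuclei, whereas Foxj3 and Foxk2 reached at most 1.22-fold and 1.25-fold in any group.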

How the data were processed

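Per the file headers, the deposited matrix was written by Cell Ranger ARC and holds whole-number counts: UMIs per gene and counts per accessibility peak, with no normalization. The submitters' processing notes name Cell Ranger ARC 2.0.0 and the build mm10, and the peak caller's settings are not given in the sources used here. Most peak values (86.4%) were even, as when both ends of a fragment are counted, so intervals on accessibility rest on fragments (count divided by 2, rounded up). The matrix holds 182201512 UMIs and 273131304 peak counts.

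Nuclei were kept if they held at least 1000 UMIs and 500 genes, at least 1000 peak counts and no more than 20% of UMIs from mitochondrial genes. Scrublet in scanpy 1.11.5 called 1154 barcodes (7.52%) as doublets, which were removed. RNA (2000 variable genes, 30 components, without the members) and accessibility (TF-IDF, 30 components, without the 152 peaks) were clustered apart with leidenalg 0.10.2 at resolution 1 on 15 neighbours. A cluster was named from the marker list with the highest mean log2 ratio (at least 0.5, with at least 3 markers raised 1.5-fold) unless another list held more of its leading 10 genes or came close.

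Levels are summed counts scaled to a total of 1000000 (CPM). Intervals are exact Poisson for levels, conditional exact binomial for folds and Clopper-Pearson for shares. The procedure was checked on simulated counts. Every member is named, with the 3 genes most like it (at least 500 UMIs), up to 4 raised genes of each list in the groups where the members are highest and, of the peaks, the promoter and up to 3 of largest fold. Pairs of clusters, further peaks, and forkhead and endoderm genes beyond these were named after their values were seen. The strand was taken from RefSeq GRCm38.p6. Members and lists were chosen with earlier results of these data known. Alternatives are in the closing section. Some genes and motifs of the lists are not reported here.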

Additional observations from a re-analysis of the deposited data

How the results depend on the processing

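No paired analysis was possible because there was 1 library per assay. All 7 members stayed at 2-fold or above in their highest group with doublets kept, with at least 2000 UMIs and peak counts, at resolutions 0.5 and 2, with groups from RNA and without the minimum of 20 UMIs. Compared with epiblast-like nuclei, the same held for the 6 members other than Foxd3, whose highest group is the epiblast itself. Over these alternatives 41 RNA folds were recomputed, from 3.35 to 54.9, of which 18 fell outside the counting interval of the value reported. Among those set against all other nuclei, Foxd3 (3.35 with doublets kept and 3.49 at resolution 2, against 5.59) and Foxj1 (23.6 at resolution 2 and 24.8 with groups from RNA, against 13.9) moved by over 1.5 times. Of 40 promoter folds, from 1.24 to 1.81, 3 fell outside, and none reached 2-fold. With 2000 bp to each side of a start Foxq1 also had a promoter value, and 1 of 6 members, Foxq1 at 2.14-fold, reached 2-fold, against 0 of 5. With RNA clusters in place of accessibility clusters, rho between RNA and promoter was 0.709 for Foxa1 (0.438) and 0.168 for Foxc1 (0.474). The count of raised peaks was 46 of 79 within 20 kb, and 60 of 152 at 3-fold. Without thinning, the share of nuclei with Foxj1 that also had Foxa2 was 54.4%, as thinning lowers every share. The list counts, with alternatives added after seeing the data, ranged from 16 to 21 for cilium genes, 4 to 5 for endoderm genes in anterior visceral endoderm-like nuclei and 17 to 18 for other forkhead genes. Depth limits the low end: Foxc1 had 426 UMIs in all, and levels of a few CPM in groups of under 500 nuclei rest on a handful of UMIs. The intervals hold no variation between embryos.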
